A study of Mus musculus with 10 samples.

Results

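Transcripts that mark tendon and its cells, the tenocytes, were followed through messenger RNA profiles of the gastrocnemius, the large calf muscle that pulls on the Achilles tendon. The set is 10 genes listed by symbol (Tnmd, Scx, Mkx, Thbs4, Kera, Fmod, Comp, Chad, Tnc and Cilp2) out of 18025 in the deposited tables, and all 10 had a row in the table of counts and in the table of abundances. The 10 samples came from wild-type C57BL/6 mice aged 8 weeks. Of these, 5 were labelled COPD, from a cigarette smoke model of chronic obstructive pulmonary disease, and 5 were labelled control. The labels give no length of smoke exposure, and do not say whether a sample is 1 animal, so a p-value here measures the spread between these samples. Nor do they say how much tendon was dissected with the muscle.

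Tendon joins muscle to bone and consists mostly of collagen I fibrils laid down by tenocytes. Scleraxis (Scx) and mohawk (Mkx) are transcription factors of that lineage, and tenomodulin (Tnmd) is a membrane protein of mature tenocytes that depends on scleraxis. Fibromodulin (Fmod) and keratocan (Kera) are small leucine-rich proteoglycans that bind collagen and shape the fibrils, and chondroadherin (Chad) is a related leucine-rich protein of cartilage and tendon matrix. Thrombospondin-4 (Thbs4) and cartilage oligomeric matrix protein (Comp) belong to the pentameric branch of the thrombospondin family. Tenascin-C (Tnc) is a matrix glycoprotein found where muscle meets tendon and in tissue under repair, and Cilp2 is a relative of the cartilage intermediate layer protein. In bulk muscle, fewer cells of a type and less RNA per cell cannot be told apart.

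The upstream sequences of 5 members that the results turn on are printed here so that the genes that moved together can be compared. Of the 10 genes, 7 had an entry in the RefSeq promoter table (build GRCm38.p6, whereas the counts refer to mm9), and each sequence runs 5′ to 3′ over the 250 bases before the RefSeq start, or 222 bases for Tnmd, where an annotated exon begins earlier. Capitals mark CANNTG, the E-box that basic helix-loop-helix factors such as scleraxis bind, which reads the same on both strands.
Thbs4, chr13:92794819-92795068, minus strand: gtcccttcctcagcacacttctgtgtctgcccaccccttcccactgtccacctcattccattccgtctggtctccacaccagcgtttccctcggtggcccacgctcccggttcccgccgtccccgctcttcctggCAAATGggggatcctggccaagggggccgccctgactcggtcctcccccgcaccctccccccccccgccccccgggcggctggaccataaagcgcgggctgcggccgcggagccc
Fmod, chr1:134037004-134037253, plus strand: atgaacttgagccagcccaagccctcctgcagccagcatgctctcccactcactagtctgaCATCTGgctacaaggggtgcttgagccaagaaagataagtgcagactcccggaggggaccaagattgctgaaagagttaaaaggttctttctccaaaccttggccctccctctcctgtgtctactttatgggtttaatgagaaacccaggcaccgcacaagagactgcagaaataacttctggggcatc
Chad, chr11:94564797-94565046, plus strand: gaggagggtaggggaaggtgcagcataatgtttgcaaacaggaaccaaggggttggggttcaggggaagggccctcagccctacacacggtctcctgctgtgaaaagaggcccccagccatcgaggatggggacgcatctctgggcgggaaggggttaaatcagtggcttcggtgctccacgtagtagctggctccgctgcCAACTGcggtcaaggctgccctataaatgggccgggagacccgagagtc
Tnmd, chrX:133850758-133850979, plus strand: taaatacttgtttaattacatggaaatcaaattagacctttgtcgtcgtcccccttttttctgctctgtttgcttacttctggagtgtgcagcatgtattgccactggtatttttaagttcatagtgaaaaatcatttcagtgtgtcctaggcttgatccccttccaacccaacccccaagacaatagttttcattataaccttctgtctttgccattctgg
Tnc, chr4:64047016-64047265, minus strand: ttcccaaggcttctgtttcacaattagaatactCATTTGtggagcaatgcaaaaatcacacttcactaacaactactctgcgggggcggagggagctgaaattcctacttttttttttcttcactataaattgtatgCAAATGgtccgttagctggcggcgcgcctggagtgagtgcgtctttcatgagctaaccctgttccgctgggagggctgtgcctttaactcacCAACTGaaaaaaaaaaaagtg

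Over 250 bases, 5 of the 7 genes with an entry (Thbs4, Fmod, Chad, Tnc and Cilp2) had at least 1 E-box, against 66.2% of 32851 promoter windows of the same length. Tnc had 3, a number reached by 12.2% of those windows, and Tnmd and Kera had none there. The EGR motif GCGGGGGCG, searched on both strands, stood in the windows of Tnc and Cilp2, that is in 2 of 7 genes, against 2.57% of all windows. For Cilp2 and Kera an annotated exon begins at or before the far end of the window, so the trimming used for Tnmd leaves 0 bases. The Cilp2 matches to both motifs come from the untrimmed window alone. These matches describe letters only, and no binding was measured.

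Per transcript length, the members were scarce beside those of muscle fibres. TPM (an abundance per transcript length, scaled to the same total in each library) summed over the 10 tendon genes to between 44.6 and 121 in COPD and between 31.6 and 67.1 in control. The 10 fast-fibre genes listed as markers of the tissue (among them Acta1, Ckm, Myh4 and Atp2a1) summed to between 250715 and 292411 TPM in COPD and between 202920 and 297254 TPM in control, so muscle fibre transcripts dominated, as the label says. Averaged over all 10 libraries, the levels ran in the order Thbs4 (23.5 TPM), Fmod (15.9), Scx (12.3), Chad (4.44), Tnmd (1.74), Comp (1.16), Kera (1.07), Tnc (0.748), Cilp2 (0.462) and Mkx (0.336 TPM). The ranges of every pair of neighbours in that order overlapped. Fmod exceeded Scx in 5 of 10 libraries and Cilp2 exceeded Mkx in 5, whereas Scx exceeded Chad in 9.

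**Figure D1:**
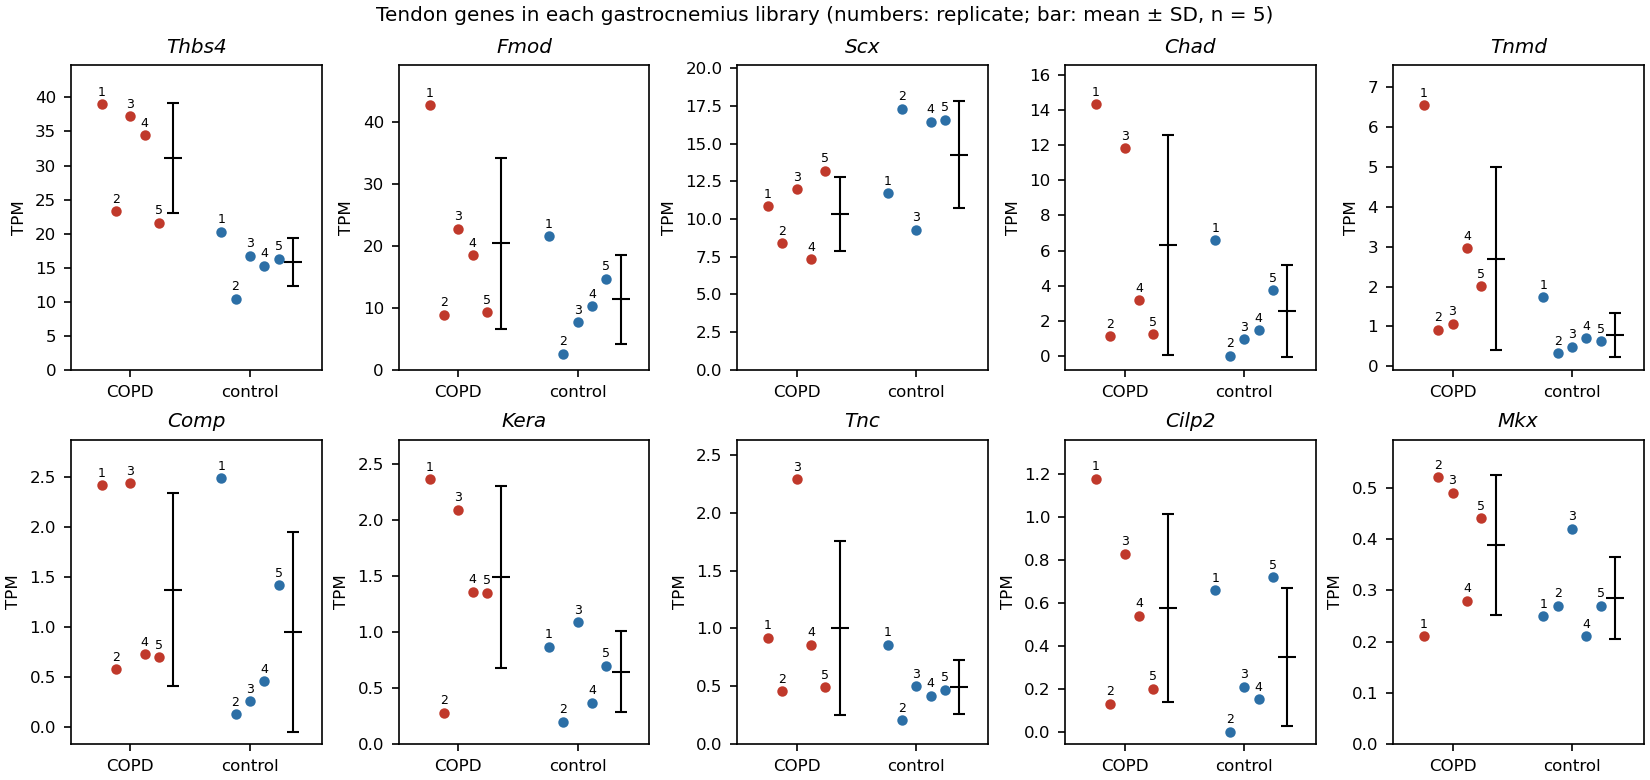
Abundance of the 10 tendon genes (y axes, TPM, a separate linear scale per gene) in the 5 COPD and 5 control libraries; numbers give the replicate and bars the mean ± SD. Thbs4 is above 21 TPM in every COPD library and at most 20.3 TPM in the controls, while the groups of the other 9 genes overlap.

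Comparing COPD with control asks whether the smoke model changed these transcripts in muscle. With edgeR's quasi-likelihood test and p-values adjusted by Benjamini-Hochberg over 12697 genes, 0 of the 9 tested members passed an adjusted p of 0.05, a threshold that 8 genes, or 0.063%, passed (0.0551% higher in COPD). At an unadjusted p under 0.05, Thbs4, Tnmd, Kera and Tnc were higher in COPD and 0 members were lower, in a comparison where 7.94% of tested genes were higher and 6.64% lower on that rule. DESeq2 called Thbs4 and Tnmd (3.19% of genes called in all) and voom with sample weights called Thbs4 (1.08%). The median log2 fold change of the 9 tested members was 1.18, beside -0.01 over all tested genes. Of the 9, 8 lay above 0, as did 48% of tested genes. Members were chosen with earlier results of these data known, and those 8 varied together across the libraries. The median and the count are therefore a description only. Mkx was too scarce for the filter on low counts; over all 10 members, without that filter, the median was 1.12. The log2 fold changes come from CPM (counts scaled by library total and trimmed-mean factor); under TPM the median of all genes shifted to -0.18, so folds read from TPM are lower than those from CPM.

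Thbs4 and Comp, the members from the pentameric thrombospondins, differed in how far the groups separated. Thbs4, an adhesive protein of tendon and muscle matrix, was at 39.0, 23.3, 37.2, 34.5 and 21.6 TPM in COPD replicates 1 to 5, against 20.3, 10.5, 16.8, 15.3 and 16.3 TPM in control replicates 1 to 5. Every COPD library lay above every control, a separation in that direction shown by 1.29% of tested genes. The means were 31.1 ± 8.09 TPM in COPD and 15.8 ± 3.54 TPM in control (SD, n = 5 each). In CPM the log2 fold change was 1.18 ± 0.22 (SE), with an adjusted p of 0.0627 by edgeR, just short of the threshold, and of 8.74e-05 by DESeq2 and 0.0338 by voom with sample weights. Without COPD replicate 5 it passed by edgeR (log2 fold change 1.30, adjusted p = 0.00826, with 3.21% of genes called), and without any other single library it did not (adjusted p 0.0924 to 0.151).

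Comp, which links collagen fibrils in tendon and cartilage, was at 2.42, 0.58, 2.44, 0.73 and 0.70 TPM in COPD and at 2.49, 0.13, 0.26, 0.46 and 1.42 TPM in control. COPD replicates 1 and 3 and control replicate 1 stood together at the top, so the groups overlapped over most of their range. Its log2 fold change of 0.75 ± 0.67 (SE; edgeR adjusted p = 0.659) was about as large as its error, and it was 1.49 without control replicate 1, 0.40 without COPD replicate 1 and 0.48 without either control replicate 2 or COPD replicate 3.

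Tenomodulin had the largest fold change of the members by edgeR over all libraries, a place that Chad took by voom with sample weights (2.27, against 1.60 for Tnmd). Tnmd was at 6.55, 0.92, 1.07, 2.96 and 2.01 TPM in COPD, against 1.73, 0.33, 0.49, 0.70 and 0.64 TPM in control. All COPD libraries lay above 4 of the 5 controls, but control replicate 1 exceeded COPD replicates 2 and 3. The counts behind these values were low, from 11 to 80 in COPD and from 4 to 22 in control. The log2 fold change was 2.01 ± 0.59 (SE), with an adjusted p of 0.16 by edgeR and 0.0232 by DESeq2. It was 1.32 without COPD replicate 1, the library with the highest value, and 2.52 without control replicate 1. With a term for Y-linked transcripts, which COPD replicates 1, 4 and 5 lacked, it was 0.57 (edgeR adjusted p = 0.705).

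The leucine-rich matrix proteins varied widely within both groups. Fmod was at 42.7, 8.91, 22.8, 18.6 and 9.32 TPM in COPD and at 21.6, 2.63, 7.68, 10.3 and 14.7 TPM in control. COPD replicate 1 was the highest library and control replicate 2 the lowest, with COPD replicates 2, 4 and 5 within the range of the controls. Its log2 fold change was 1.08 ± 0.52 (SE; edgeR adjusted p = 0.362), and it was 0.57 without COPD replicate 1.

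Chad was at 14.4, 1.11, 11.8, 3.18 and 1.21 TPM in COPD and at 6.59, 0, 0.95, 1.46 and 3.75 TPM in control. Control replicate 2 had a count of 0, which allows up to 0.178 CPM (3 counts, counting error only), while COPD replicate 1 had 224 counts. Its log2 fold change was 1.55 ± 0.87 (SE; edgeR adjusted p = 0.444). It was 0.94 without COPD replicate 1. The within-group spread of log2 CPM placed Chad at the 99.8th percentile of all tested genes.

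Kera, best known as a proteoglycan of the cornea and also found in tendon, was at 2.36, 0.28, 2.09, 1.36 and 1.35 TPM in COPD and at 0.87, 0.20, 1.09, 0.37 and 0.70 TPM in control. Of the COPD libraries, 4 lay above all controls, and COPD replicate 2 lay below 4 of the 5 controls. The log2 fold change was 1.44 ± 0.53 (SE; edgeR adjusted p = 0.246) on counts of 3 to 43 per library.

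Tnc was at 0.92, 0.46, 2.29, 0.86 and 0.49 TPM in COPD and at 0.86, 0.21, 0.50, 0.42 and 0.47 TPM in control. COPD replicate 3 alone was above 1 TPM, and control replicate 1 matched COPD replicate 4. The log2 fold change of 1.22 ± 0.46 (SE; edgeR adjusted p = 0.259) became 0.69 without COPD replicate 3.

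Cilp2 was at 1.18, 0.13, 0.83, 0.54 and 0.20 TPM in COPD and at 0.66, 0, 0.21, 0.15 and 0.72 TPM in control. The groups overlapped, and control replicate 2 again had a count of 0. The log2 fold change was 0.95 ± 0.73 (SE; edgeR adjusted p = 0.592), and it was 0.46 without COPD replicate 1.

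The transcription factors Scx and Mkx had log2 fold changes of opposite sign, and neither passed the threshold. Scx was at 10.9, 8.40, 11.96, 7.34 and 13.2 TPM in COPD and at 11.7, 17.3, 9.29, 16.5 and 16.6 TPM in control, and was the sole tested member with a log2 fold change below 0 (-0.25 ± 0.19 SE; edgeR adjusted p = 0.597). It was -0.13 without COPD replicate 4 and -0.45 by limma on log2(TPM + 0.1), where the median of all genes was -0.21. Control replicate 2, where 8 of the 10 members were at their lowest in CPM, held the highest Scx value of all libraries. In the GRCm38 annotation Scx lies inside the gene Bop1, a ribosome assembly factor transcribed from the opposite strand, with no overlap of exons. Bop1 was at 16.6 to 20.0 TPM in COPD and at 20.6 to 29.7 TPM in control (log2 fold change -0.32 ± 0.12 SE; edgeR adjusted p = 0.236), and its log2 CPM had a Pearson r of 0.49 with Scx over the 10 libraries. The sources used here do not say whether the counting used strand, and the part of Bop1 reads in the Scx counts was not tested. Chad lies in the same way inside Acsf2, at 1.38 to 2.21 TPM in COPD and 2.03 to 3.19 TPM in control, with an r of 0.09.

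Mkx was at 0.21, 0.52, 0.49, 0.28 and 0.44 TPM in COPD and at 0.25, 0.27, 0.42, 0.21 and 0.27 TPM in control. The groups overlapped on counts of 6.45 to 15.29, of which 9 of 10 were not whole numbers. Without the filter on low counts its log2 fold change was 0.60 ± 0.37 (SE; edgeR adjusted p = 0.543).

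**Figure D2:**
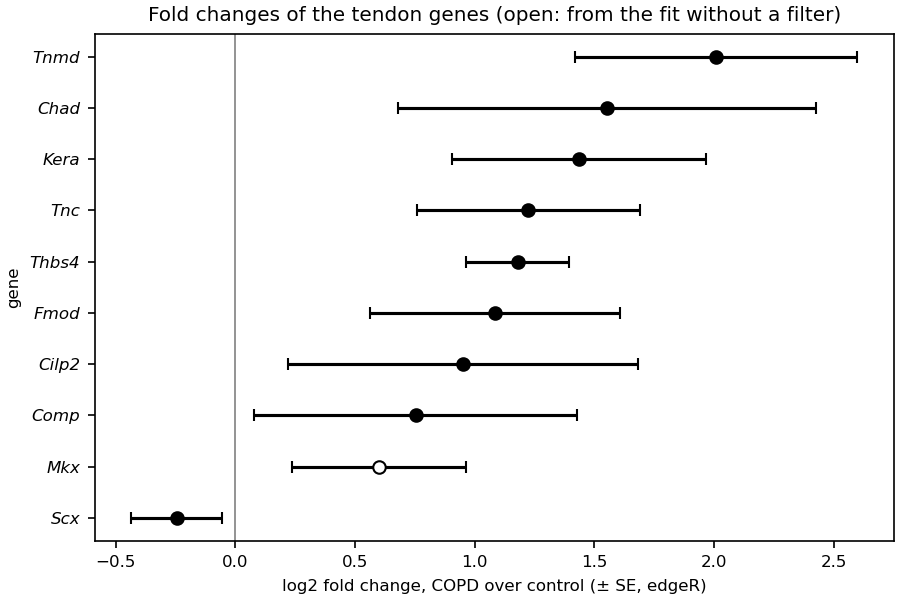
Log2 fold change of COPD over control (x axis, points with SE bars, edgeR) for each tendon gene (y axis); the open point is Mkx from the fit without a filter. Tnmd has the largest value (2.01), Thbs4 the smallest error among the members above 1 (0.22), and Scx alone lies below 0.

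The spread among libraries of 1 group was wide for most of the matrix genes. Of the 9 tested members, 7 (Fmod, Chad, Tnmd, Comp, Kera, Tnc and Cilp2) had a within-group SD of log2 CPM at or above the 96.7th percentile of all tested genes, against the 77.7th percentile for Thbs4 and the 66.1st for Scx. The percentile is over genes of every level, and counting error was not taken out. Tnmd, Comp, Kera and Cilp2 had 80 counts or fewer per library, whereas Fmod had 76 to 1257. COPD replicate 1 had the highest CPM of all libraries for 7 of the 10 members, and control replicate 2 had the lowest for 8. The mean log2 CPM of the 9 tested members was 3.36, 1.34, 2.91, 2.23 and 1.69 in COPD replicates 1 to 5 and 2.27, -0.15, 1.22, 1.13 and 1.75 in control replicates 1 to 5. Control replicate 1 lay above COPD replicates 2, 4 and 5, and control replicate 5 above COPD replicates 2 and 5.

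**Figure D3:**
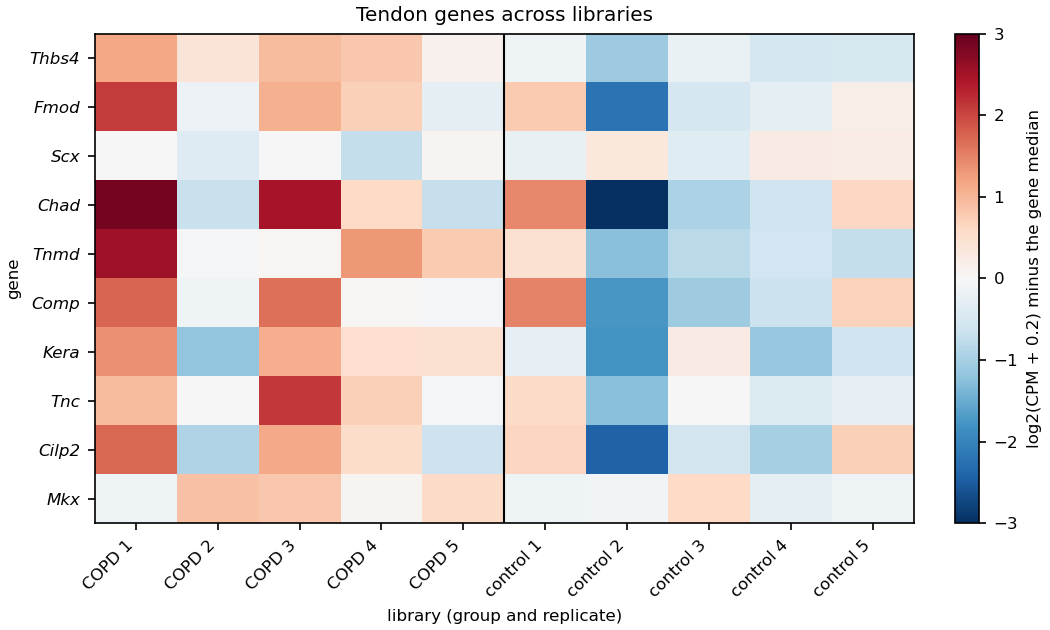
Log2(CPM + 0.2) of each tendon gene (rows) in each library (columns, COPD left of control), minus the median of the gene, with colours limited to ±3. COPD replicates 1 and 3 are high and control replicate 2 is low in nearly all matrix genes, and Scx and Mkx do not share that pattern.

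The 8 members other than Scx and Mkx varied together across the 10 libraries, which share tissue and preparation. Their 28 pairs had Pearson r of 0.58 to 0.98 in log2 CPM, with a median of 0.81, and 0.77 after the group means were removed. Without control replicate 2 and COPD replicate 1, the libraries farthest from the median, the 28 pairs were still above 0, with a median of 0.61 over 8 libraries. The closest pair was Fmod and Chad (r = 0.98), followed by Chad and Cilp2 (0.97) and Fmod and Cilp2 (0.96). Tnmd and Tnc were the least alike (0.58). The 9 pairs with Scx had a median r of -0.32 and 0 above 0, and the 9 with Mkx a median of -0.01. Over all 45 pairs of the 10 members, 32 lay above 0, with a median r of 0.69. These r values describe 10 libraries, and Spearman's rho was above 0 for all 28 pairs without Scx or Mkx.

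**Figure D4:**
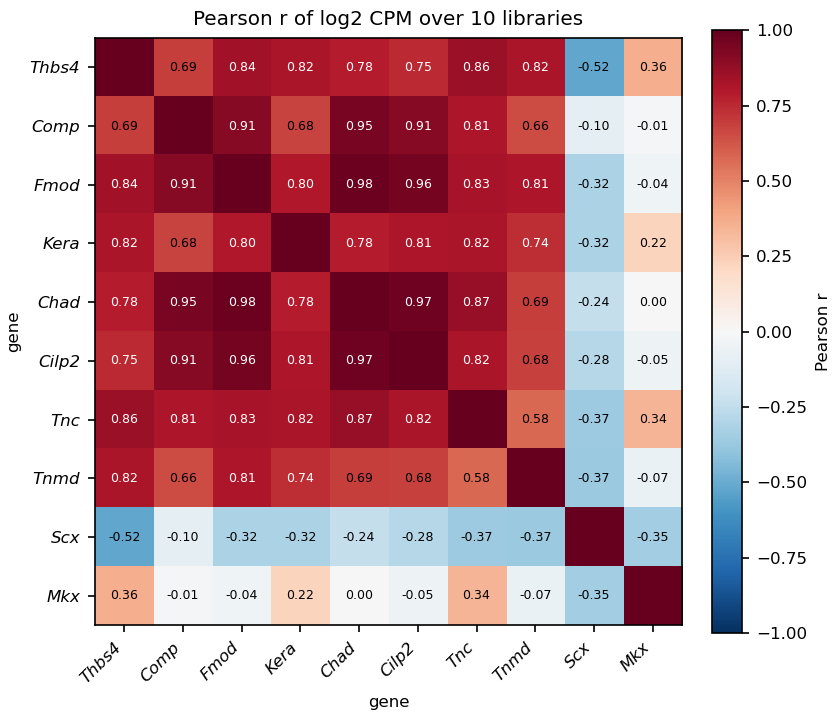
Pearson r of log2 CPM over the 10 libraries for each pair of tendon genes (rows and columns), from -1 in blue to 1 in red. The block of 8 matrix and membrane genes ranges from 0.58 to 0.98, and the rows of Scx and Mkx stay between -0.52 and 0.36.

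Of 12041 other genes with a mean of at least 1 CPM, the transcript whose log2 CPM was most like the mean of the 9 tested members was Ostn, which encodes osteocrin (musclin), a peptide secreted by muscle and bone (r = 0.96 over 10 libraries and 0.96 with group means removed). Ostn was at 65.5, 6.90, 23.0, 24.7 and 7.59 TPM in COPD and at 30.7, 1.66, 4.99, 5.12 and 19.2 TPM in control. It too was highest in COPD replicate 1 and lowest in control replicate 2, and it did not pass the test of COPD against control (log2 fold change 1.31, edgeR adjusted p = 0.451). Next came the potassium channel gene Kcna1 (r = 0.95), the galactose enzyme gene Galt (0.94), the cilium gene Rsph1 (0.93), the elastic microfibril gene Mfap4 (0.93) and Ccn2, a matrix protein induced by TGF-beta (0.92). With group means removed the list was led by Slc18b1 (0.99), Sema3b (0.97), Ostn, Iqcc (0.95), Ccn2 (0.95) and Ppt1 (0.95). For single members, Tnc was most like Col1a1 (0.96) and Comp most like Angptl7 (0.96), an angiopoietin-like gene. For Scx it was CN725425 (0.93) and the RNA polymerase I subunit gene Polr1e (0.91). These genes were picked as the highest r values, so the values are a description of 10 libraries.

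The other genes of tendon matrix were read from lists of relatives, partners and neighbours. Of the 138 tested genes in all 19 other lists, 0 passed by edgeR (30 at an unadjusted p under 0.05, 14.6% of all tested genes being at that level), and DESeq2 called Col3a1 and Plod2. Among fibril collagens, 8 of the 9 tested were above 0 on the log2 fold scale (median 0.61), and an unadjusted p under 0.05 was reached by 4 with higher and 1 with lower values. Col3a1, a collagen of young and healing fibrils, was at 20.0 ± 8.65 TPM in COPD and 10.7 ± 4.04 TPM in control (SD, n = 5 each; log2 fold change 1.08 ± 0.35 SE, edgeR adjusted p = 0.197, DESeq2 0.0439). Col14a1 was the collagen below 0 (0.564 ± 0.202 TPM in COPD and 1.08 ± 0.168 TPM in control; log2 fold change -0.73, edgeR adjusted p = 0.162). Col1a1 was at 57.4 TPM in COPD replicate 3 and at 10.5 to 24.3 TPM in the other COPD libraries, against 7.44 to 24.2 TPM in control. The summed TPM of the fibril collagens, on a log2 scale, had an r of 0.81 with the mean of the tendon genes over the 10 libraries.

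**Figure D5:**
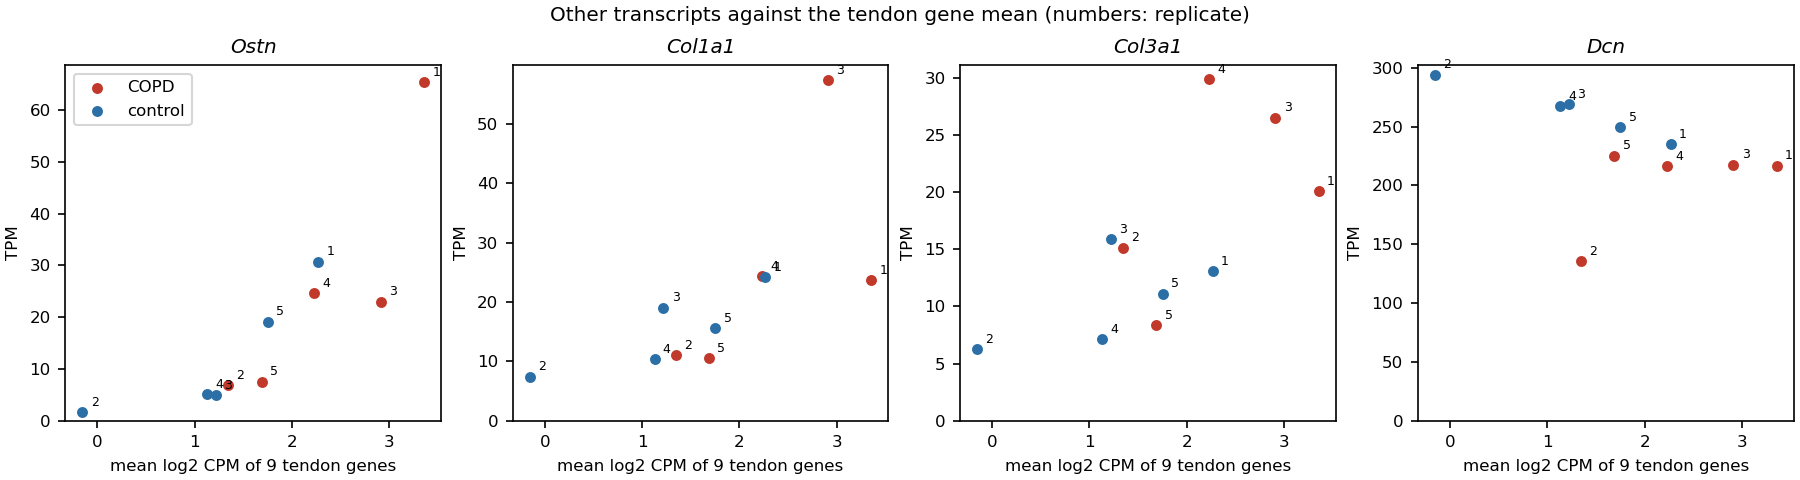
TPM of Ostn, Col1a1, Col3a1 and Dcn (y axes, linear) against the mean log2 CPM of the 9 tested tendon genes (x axes) in each library, with replicate numbers. Ostn is highest, at 65.5 TPM, in COPD replicate 1 and lowest, at 1.66 TPM, in control replicate 2, as are the tendon genes, and Dcn (decorin) shows no such order.

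The other small leucine-rich proteoglycans were mixed in direction. Of 11 tested, 6 lay above 0 and 5 below, with a median of 0.04 from CPM. The summed TPM of the list ran from 191 to 337 in COPD and from 344 to 406 in control. Dcn made up most of each sum, at 136 to 225 TPM in COPD and 235 to 294 TPM in control. Folds read from TPM are also lower than those from CPM, as given above. Decorin (Dcn), made by most fibroblasts, had a log2 fold change of -0.18 ± 0.14 (SE; edgeR adjusted p = 0.585) and an r of -0.12 with the tendon gene mean. Over the 11, that r ran from -0.37 for Podn to 0.72 for Ogn (osteoglycin), whose log2 fold change was 0.25. Asporin (Aspn) was at a log2 fold change of 0.51 and podocan (Podn) at -0.49 (edgeR adjusted p = 0.296 and 0.413). Among 6 tested relatives of the members, Tnxb (tenascin-X) was at 8.71 ± 1.80 TPM in COPD and 12.4 ± 0.951 TPM in control (SD, n = 5 each; log2 fold change -0.34, edgeR adjusted p = 0.304) and Thbs1 at a log2 fold change of 0.48 (0.351). Cilp, the relative of Cilp2, had a log2 fold change of -0.37 ± 0.78 (SE; edgeR adjusted p = 0.874).

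Genes that cross-link and process collagen had a median log2 fold change of 0.19 over 16 tested, with 13 above 0. Plod2, a collagen lysyl hydroxylase, had one of 0.98 ± 0.30 (SE; edgeR adjusted p = 0.169, DESeq2 0.0435), and the oxidase gene Loxl2 one of 0.71 (0.218). Among 14 tested regulators upstream of the tendon programme, the median was 0.18, and the TGF-beta effector gene Smad3 had the smallest p (log2 fold change 0.92 ± 0.32 SE, edgeR adjusted p = 0.222). For the myotendinous junction, where fibres anchor to tendon, 6 of 9 lay above 0 with a median of 0.12, led by the adhesion genes Vcl (0.45, adjusted p = 0.178 by edgeR) and Tln1 (0.29, 0.296). Scaling by library size alone put the median of all genes at -0.17, and fewer genes then lay above 0: 3 of 9 for the junction, 9 of 16 for cross-linking, 3 of 11 for the other leucine-rich proteoglycans, 3 of 6 for the relatives, 5 of 12 for fibroblasts, 3 of 8 for Schwann cells, 8 of 10 for fast fibres, 4 of 5 for paratenon, 1 of 3 for adipocytes and 3 of 5 for red cells. The tendon genes stayed at 8 of 9 and the collagens at 8 of 9 under that scaling.

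Markers of tissues that could accompany tendon are given with their summed TPM, and their part in the member values was not tested. Paratenon and synovium genes (5 of 5 tested above 0, median log2 fold change 0.37) summed to 91.4 to 166 TPM in COPD and 68.9 to 181 TPM in control, and on a log2 scale that sum had an r of 0.83 with the tendon gene mean. Prg4 and Fibin had the smallest p among them (log2 fold changes 0.46 and 0.37, edgeR adjusted p = 0.463 and 0.679). Among cartilage markers Acan, Col2a1 and Col10a1 were at 0 to 0.14 TPM in every library, whereas Sox9 was at 0.71 to 2.44 TPM and Col9a1 at 0.87 to 6.96 TPM. The 8 genes in the table summed to 2.92 to 7.58 TPM in COPD and 2.38 to 9.91 TPM in control. The 2 tested were Sox9 (log2 fold change 0.39, r of 0.12 with the tendon gene mean) and Col9a1 (-0.14, r of 0.60). Bone and periosteum genes summed to 18.6 to 85.4 TPM in COPD and 18.5 to 31.4 TPM in control, with 2 of 3 tested above 0 (Alpl at 0.81 and Postn at 1.03, edgeR adjusted p = 0.23 and 0.376). Bglap (osteocalcin), a product of bone-forming cells, was listed at 0 in 7 of 10 libraries, and was at 3.16 TPM in COPD replicate 1, 11.8 TPM in COPD replicate 3 and 2.40 TPM in control replicate 1, libraries that were also high for Comp and Chad. In the same order of libraries Ibsp was at 0.05, 6.79 and 1.63 TPM and Sp7 at 0, 0.55 and 0.28 TPM. COPD replicate 1 was thus high for Bglap but not for Ibsp or Sp7. Control replicate 5, with Bglap at 0, had Ibsp at 1.07 TPM and Sp7 at 0.21 TPM. Fibroblast and progenitor genes summed to 382 to 675 TPM in COPD and 594 to 707 TPM in control, 7 of 12 above 0 at a median of 0.02, with Ly6a at -0.42 and Dpt at 0.53 (edgeR adjusted p = 0.259 and 0.304). Schwann cell genes ran from 82.3 to 292 TPM in COPD and from 119 to 247 TPM in control, 5 of 8 above 0 at a median of 0.08, with Sox10 at -0.36 and Cdh19 at 0.24 (edgeR adjusted p = 0.598 and 0.768).

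Within muscle, slow-fibre genes lay below 0 in 7 of 7 cases (median -1.38) and summed to 100.2 to 453 TPM in COPD and 190 to 1357 TPM in control. Control replicates 1 and 4 stood apart at 1357 and 937 TPM, and the other 3 controls, at 190 to 251 TPM, lay within the range of COPD. The smallest p were those of Tnni1 (-1.70) and Tnnt1 (-1.43; edgeR adjusted p = 0.296 and 0.322). Their summed TPM, on a log2 scale, had an r of 0.03 with the tendon gene mean. Fast-fibre genes were above 0 in 10 of 10 (median 0.23; Tnnc2 0.41 and Pvalb 0.59, edgeR adjusted p = 0.269 and 0.288). Macrophage genes were below 0 in 7 of 7 (median -0.61; C1qa -0.63 and C1qc -0.61, both at an edgeR adjusted p of 0.318), and endothelial genes in 4 of 5 (median -0.15; Tek -0.42 and Emcn 0.21, edgeR adjusted p = 0.344 and 0.463). Satellite cell genes had a median of -0.27 over 3 tested, led by Pax7 (-0.81, edgeR adjusted p = 0.245) and Chodl (0.31, 0.356). Adipocyte and red cell genes had medians of 0.07 over 3 and 0.15 over 5 tested, with Cidec (0.55), Adipoq (-0.25), Hbb-bt (0.29) and Hba-a2 (0.15) named for the smallest p (edgeR adjusted p 0.792 to 0.94).

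Some differences among libraries ran with the groups. Library totals were 14085854 to 17163590 expected counts in COPD and 15637218 to 17251034 in control, and trimmed-mean scaling factors were 0.948 ± 0.0196 in COPD and 1.06 ± 0.0619 in control (SD, n = 5 each), a difference with p = 0.0159 by a two-sided exact permutation test, or 0.0635 once adjusted over 4 measures of the libraries. Summed over Kdm5d, Ddx3y and Eif2s3y, all Y-linked, the CPM was 0.184 to 0.295 in COPD replicates 1, 4 and 5 and 81.3 to 109 in the other 7 libraries, so that libraries without Y-linked transcripts occurred in COPD alone. The list had log2 fold changes below 0 in 3 of 3 genes (median -1.54), Kdm5d at -1.80 and Eif2s3y at -1.54. In the 7 libraries with Y-linked transcripts, Thbs4 had a log2 fold change of 1.16 (edgeR adjusted p = 0.0321, with 3.7% of genes called), while Tnc was at 1.69 (0.131), Chad at 1.55 (0.425), Kera at 1.10 (0.435), Comp at 0.88 (0.618), Fmod at 0.70 (0.545), Cilp2 at 0.68 (0.745), Tnmd at 0.58 (0.622), Scx at -0.24 (0.603) and Mkx at 1.04 (0.187). With a term for Y-linked transcripts over all 10 libraries, Thbs4 was at 1.15 and did not pass (edgeR adjusted p = 0.0601). The comparison within 7 libraries sets COPD replicates 2 and 3 against the 5 controls. On the first principal component of all tested genes, COPD replicate 5 lay at -21.9, within the controls (-23.9 to -10.04), and the other COPD libraries at 11.4 to 38.0.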

How the data were processed

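Messenger RNA of 10 gastrocnemius samples, 5 COPD and 5 control by their titles, had been purified with oligo(dT) beads, per the labels' protocols. The authors deposited expected counts per gene symbol (30.7% not whole) and TPM with the same total in every sample. RSEM 1.2.12, HISAT2 2.0.4, Bowtie2 2.2.5, DESeq2 1.4.5 and the build mm9 appear in the submitters' processing notes without role or order. Strand use was not given.

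Expected counts were rounded, filtered by filterByExpr (12697 of 18025 genes), scaled by TMM and tested by edgeR 4.0.16 (glmQLFit, glmQLFTest; R 4.3.3) over all 10 libraries, with adjustment over all tested genes. The SE is the fold change divided by the square root of F. DESeq2 1.42.0, limma 3.58.1 (voom, and log2(TPM + 1) or log2(TPM + 0.1)), other scalings and filters, a replicate block, Y-linked settings and leaving out each library were alternatives. Log2 CPM used a prior count of 2.

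Members and lists were chosen with earlier results of these data known. Named genes were the members, the 2 genes of smallest p in each other list, since none was past the threshold, and the genes most like the member mean. Of the genes that the rule names from the lists, 1 is not reported here. The rule also names the genes most like each single member, and of these pairings only some for Tnc, Comp and Scx are given. Dcn, Ogn, Cilp, Col1a1, Bglap, Ibsp, Sp7, Acan, Col2a1 and Col10a1 were added after their values were seen. So were Bop1 and Acsf2, which overlap members in GENCODE M21. On simulated data for this comparison (12566 genes) edgeR recovered 34.3%, 59.7% and 97% of genes changed 1.5, 2 and 4-fold, with 5.93% false calls. These shares are over genes of every level and spread. Recovery of genes as variable as most of the tendon genes was not tested. At these totals a gene near 1 CPM has few counts and a large counting error. All library pairs differed by more than counting noise, with a chi-square of 18.9 to 132 for each degree of freedom.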

Additional observations from a re-analysis of the deposited data

Results flagged for a closer look

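Dixon's test for a sample far from the others was applied to the CPM of each tendon gene in each group. With 10 genes this made 20 groups in all, of which chance flags about 1 in 20 if values are normally distributed. CPM was used without a log scale, so that rate may not hold here. The test flagged 3 values, each above the others of its group. Tnc in COPD replicate 3 was at 8.6 CPM, against 1.78 to 3.69 CPM in the other COPD libraries, and Col1a1 and Bglap were highest in the same library. Tnmd in control replicate 1 was at 1.24 CPM, against 0.237 to 0.499 CPM in the other controls, and this library was also the highest control for Fmod, Chad and Comp. Mkx in control replicate 3 was at 0.864 CPM, against 0.388 to 0.473 CPM in the other controls, on 12.74 expected counts.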

How the results depend on the processing

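The fold changes of the 10 tendon genes kept their direction under every alternative that could be run (22 for Tnmd, Scx, Thbs4, Kera, Fmod, Comp and Chad, 20 for Tnc and Cilp2 and 8 for Mkx), and 196 of the 202 alternative values stayed on the same side of the threshold. The other 6 passed it where edgeR over all libraries did not: Thbs4 in 5 (log2 fold changes 1.16 to 1.30) and Tnmd by DESeq2 (2.04). The number of tendon genes called, 0 by edgeR over all libraries, was 2 by DESeq2, 1 by voom with sample weights, 1 with the replicate block, 1 in the libraries with Y-linked transcripts and 0 to 1 when single libraries were left out. Their median log2 fold change of 1.18 ranged from 0.46 (log2(TPM + 1) without a filter) to 1.47 (without control replicate 1). The number of genes called over the whole table, 8, was 405 by DESeq2, 17 without a filter, 67 and 65 by limma on log2(TPM + 1) and log2(TPM + 0.1), 2 on log2(TPM + 1) without a filter, 137 by voom with sample weights, 216 with a term for Y-linked transcripts and 488 in the libraries that have them; it ran from 0 (without COPD replicate 2, with 1510 at an unadjusted p under 0.05) to 410 (without COPD replicate 5), and was 5 without COPD replicate 4 and 3, 3, 1, 1 and 2 without control replicates 1 to 5. The cause of these shifts was not tested. Replicate numbers did not match the samples (r of same-numbered deviations -0.14 to 0.04), but some tendon genes ran with them in CPM. Tnmd, Thbs4, Fmod, Chad and Comp were highest in replicate 1 of both groups, and Tnmd, Kera, Comp and Cilp2 lowest in replicate 2 of both. With the replicate block 7 genes were called, 3 of them among the 8, and Thbs4 had an edgeR adjusted p of 0.0484. The SE was then smaller for Tnmd (0.27, edgeR adjusted p = 0.0807) and Kera (0.28, 0.141). Of the tested members it rose for Scx alone (0.22). Whether same-numbered samples were handled together was not tested. Depth limits Mkx, Kera, Tnmd, Comp and Cilp2, at 80 counts or fewer per library.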
